A study of Mus musculus with 11 samples.

Results

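Mouse embryonic stem (ES) cells kept in KOSR/LIF were compared with ES cells kept in serum/LIF and in 2i/LIF together. The KOSR/LIF group was chosen by title and holds 3 of the 11 arrays of the series. Its reference was the equal-weight mean of the group means of serum/LIF (3 arrays) and 2i/LIF (5 arrays), so both media counted alike. Genes for which every KOSR/LIF array lay above, or below, all 8 other arrays are called genes with arrays apart.

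Every array held RNA of unsorted ES cells of the 129/Ola background, grown in its medium for at least 3 passages. Serum/LIF and KOSR/LIF each had 1 sample of the lines E14, HVJu5.1 and HVJu9.3. In KOSR/LIF, replicate 1 was E14, replicate 2 was HVJu9.3 and replicate 3 was HVJu5.1. The 5 samples of 2i/LIF came from the same lines, but titles and source names disagree on the line of replicates 1 to 4. Each line is described as an independent clone, and no feeder cells, sorting or genetic change are named in the labels. The p-values below measure the spread between these samples, which may be technical where a line was sampled more than once.

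LIF, leukaemia inhibitory factor, keeps STAT3 active in mouse ES cells and is shared by all 3 media. Serum is an undefined mixture of growth factors, lipids and vitamins. 2i medium blocks MEK and GSK3, which quiets ERK signalling and lets beta-catenin accumulate, and holds ES cells close to the naive epiblast of the early embryo. KOSR, knockout serum replacement, supplies lipid-rich albumin, insulin, transferrin, amino acids and ascorbic acid in place of serum.

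In KOSR/LIF, 8 of 19 retinoid genes, 7 of 24 Hox genes and 10 of 28 genes of germ cells and the piRNA pathway were higher than the mean of the other media, against 3.63% of all genes tested. Stra8 is counted in both the retinoid and the germ cell list. The counted genes Hoxb5 and Asz1 entered the test only or mostly through KOSR/LIF. Stra8, which is switched on by retinoic acid in germ cells entering meiosis, was 37.2-fold higher than the mean of the other media, and Hoxb2, which was dim in both other media, was 14.3-fold higher with dim signals raised to each array's floor. Lower were 10 of 19 naive pluripotency genes and 7 of 30 epithelial junction genes, against 2.48% of all genes, among them Dppa3 (6.98-fold), Tfcp2l1 (4.44-fold) and Cdh1 (3.61-fold). Pou5f1, the core pluripotency factor, did not pass the test. Of 20 primitive endoderm genes 10 rose, but only 3 had KOSR/LIF arrays apart from the others, against 344 of all 590 higher genes.

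The arrays were 1-colour Agilent arrays, and a level is the log2 of a probe's processed intensity minus the 75th percentile of its array, so 0 is that percentile and levels are compared only within a probe. KOSR/LIF replicate 3 stood apart technically. Its 75th percentile was 65.3 intensity units, against 176 to 538 on the other 10 arrays, and 43.7% of its probes were well above background, against 53.7% to 72.6%. Its dimmest probe well above background lay at a level of -2.50, against -6.47 to -3.80 elsewhere. Results are therefore given with and without it. It was also scanned on another day than KOSR/LIF replicates 1 and 2, which shared a slide and scan day with 2 serum/LIF and 2 2i/LIF arrays. All 8 ES cell markers were well above background on every array, and their summed linear level was 168 to 271 in KOSR/LIF, 353 to 460 in serum/LIF and 258 to 402 in 2i/LIF. Of 15 fibroblast and feeder cell markers, 7 to 11 were above background on a KOSR/LIF array, 11 to 13 on a serum/LIF array and 6 to 11 on a 2i/LIF array, while Prrx1 and Fap were above it on none. Their summed level was 9.05 to 16.1 in KOSR/LIF, 6.45 to 16.7 in serum/LIF and 2.19 to 2.99 in 2i/LIF. In such bulk samples, a change in the share of cells of a type and a change of RNA per cell cannot be told apart.

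Of 16275 genes tested with limma, 993 (6.1%) differed: 590 (3.63%) were higher in KOSR/LIF and 403 (2.48%) were lower at a Benjamini-Hochberg adjusted p under 0.05. Arrays were apart for 344 (2.11%) of the higher and 269 (1.65%) of the lower genes. For the other 246 higher and 134 lower genes, at least 1 array of another medium reached the KOSR/LIF range. Levels of probes that are not well above background have no measured order. Genes with arrays apart include some with such levels in KOSR/LIF. Whatever the test, 529 genes (3.25%) had all KOSR/LIF arrays above the others and 546 (3.35%) had them below. Among the genes that passed with arrays apart, 321 higher and 231 lower genes differed by at least 2-fold. Both single-medium differences passed as well for 144 of the higher and 105 of the lower genes. The comparisons with serum/LIF and with 2i/LIF share the KOSR/LIF arrays. KOSR/LIF was higher than serum/LIF for 385 genes (2.37%) and lower for 359 (2.21%), and higher than 2i/LIF for 1417 (8.71%) and lower for 969 (5.95%).

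The split between directions depended on the scaling. Of all calls, 59.4% were higher in KOSR/LIF with the 75th percentile over all probes, 69.8% (771 higher, 334 lower) with that percentile over probes detected on all arrays, 49.6% (458 and 465) after quantile normalization and 34.0% (214 and 415) after median scaling. The median change over all genes was -0.02, and moved to 0.11 with the percentile over detected probes and to -0.35 with median scaling, so a change should be read against those shifts. After normexp background correction 47.7% of calls were higher (269 and 295). It was 45.2% when all signals were raised to the floor of KOSR/LIF replicate 3 (366 and 444), and with probes well above background on at least 8 arrays 429 genes were higher and 429 lower. Without KOSR/LIF replicate 3, 392 genes were higher and 233 lower, of which 326 and 200 were also called with it. Arrays were then apart for 319 and 184. In the 6 arrays of the shared scan day, 668 genes were higher and 335 lower. No serum/LIF array was scanned on the day of KOSR/LIF replicate 3, so that day gave no value.

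Retinoids are made from vitamin A: cells take up retinol, oxidise it to retinoic acid and degrade it with CYP26 enzymes, and retinoic acid acts through receptors that bind paired copies of a short sequence. Of 19 retinoid genes tested, 8 were higher and 0 lower (all genes 3.63% and 2.48%). Arrays were apart for 5 of the 8, and for 344 of all 590 higher genes. The median log2 change of the 19 was 1.34, against -0.02 over all genes. It was 0.86 with signals raised to the highest floor, where 5 genes passed. The count fell to 4 when serum/LIF replicate 2 or any of the 3 KOSR/LIF arrays was left out, and with median scaling 4 were higher and 2 lower.

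Stra8 had levels of 7.01, 6.75 and 5.90 on the KOSR/LIF arrays, -1.35, -0.46 and 3.19 in serum/LIF, and 3.79, 0.84, 3.53, 0.00 and 2.89 in 2i/LIF. The KOSR/LIF arrays were the 3 highest, while the other media spread widely. The log2 change was 5.22 ± 0.99 (SE; adjusted p = 0.011, limma). Without KOSR/LIF replicate 1 it was 4.99 with an adjusted p of 0.0509. Stra6, the cell surface receptor for retinol binding protein, had levels of -1.48, -1.47 and -0.49 in KOSR/LIF, -5.79, -4.95 and -4.00 in serum/LIF, and -4.88, -5.46, -3.39, -4.81 and -4.93 in 2i/LIF. All KOSR/LIF arrays were well above the rest, a change of 3.66 ± 0.46 (adjusted p = 0.0015). Its probe was well above background on 1 of 3 serum/LIF and 2 of 5 2i/LIF arrays, and with dim signals raised to each array's floor the change was 3.11. Dhrs3, which reduces retinaldehyde back to retinol, had levels of 1.92, 2.66 and 2.14 in KOSR/LIF, 0.50, -0.13 and 0.42 in serum/LIF, and 1.69, 1.00, 1.00, 0.94 and 1.24 in 2i/LIF. These arrays did not overlap either, and the change was 1.52 ± 0.25 (adjusted p = 0.00538).

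Rarb, the retinoic acid receptor beta and a textbook retinoic acid target, was at -1.10, -1.05 and -0.13 in KOSR/LIF, at -5.38, -3.90 and -2.82 in serum/LIF, and at -2.44, -6.12, -3.33, -5.66 and -2.73 in 2i/LIF. The change of 3.28 ± 0.81 passed (adjusted p = 0.0354), but not when serum/LIF replicate 1 or 2 or any KOSR/LIF array was left out (adjusted p 0.0691 to 0.134). Cyp26a1, which degrades retinoic acid, was at -0.77, -1.22 and -1.91 in KOSR/LIF, close to serum/LIF at -2.18, -1.94 and -1.36, and far above 2i/LIF at -5.22, -4.52, -4.60, -4.71 and -4.82. Against serum/LIF alone its difference was 0.53 (adjusted p = 0.436), and against 2i/LIF 3.47 (adjusted p = 3.75e-05). Cyp26b1, the related enzyme, changed by 1.61 ± 0.41 with arrays apart (adjusted p = 0.0392), and lost the call without any 1 of 8 arrays. Crabp2, a retinoic acid carrier, rose by 1.55 (adjusted p = 0.0474), and Meis1, a homeobox partner of Hox proteins, by 1.67 (adjusted p = 0.0258), both with overlapping arrays. Crabp2 was lost without any 1 of 10 arrays (adjusted p = 0.158 without KOSR/LIF replicate 3), and Meis1 without KOSR/LIF replicate 2 or 3 or serum/LIF replicate 2 (adjusted p 0.111, 0.0859 and 0.0526).

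The promoters of Rarb and Cyp26a1 are shown because they were the only windows among the listed retinoid genes with a pair of GTTCA or GGTCA copies in the same orientation, separated by 6 bases of any kind. The windows are RefSeq's (GRCm38.p6), 300 bases long, from 250 before to 50 after a gene's start, and the search covered both strands. Capitals mark the match. Rarb lies on the minus strand of chr14:16575427-16575726 with the match beginning 52 bases before the start, and Cyp26a1 on the plus strand of chr19:37697558-37697857 with the match 32 bases before it.
Rarb: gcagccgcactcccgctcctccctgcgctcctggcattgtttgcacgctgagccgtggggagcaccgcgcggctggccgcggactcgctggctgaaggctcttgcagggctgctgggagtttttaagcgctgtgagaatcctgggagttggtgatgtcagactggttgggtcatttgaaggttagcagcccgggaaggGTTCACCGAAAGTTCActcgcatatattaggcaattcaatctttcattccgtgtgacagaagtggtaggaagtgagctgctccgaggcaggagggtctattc
Cyp26a1: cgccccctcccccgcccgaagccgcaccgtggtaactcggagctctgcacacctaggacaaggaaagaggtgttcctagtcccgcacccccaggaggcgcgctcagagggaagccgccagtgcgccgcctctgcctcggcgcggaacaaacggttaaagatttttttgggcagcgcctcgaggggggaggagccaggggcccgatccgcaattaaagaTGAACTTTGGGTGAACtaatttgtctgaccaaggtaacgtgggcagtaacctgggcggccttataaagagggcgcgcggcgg
This pattern was chosen after the data were seen. It occurred in 23 of 16165 windows of tested genes (0.142%), in 2 of 24 windows of the retinoid genes, in 1 of 332 windows (0.301%) of genes higher with arrays apart, and in 0 of 298 of genes lower with arrays apart.

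Hox genes sit in clusters and give cells their position along the body axis, and their 3′ members are early responders to retinoic acid in ES cell differentiation. Of 24 Hox genes tested, 7 were higher and 0 lower in KOSR/LIF (all genes 3.63% and 2.48%). Arrays were apart for 6 of the 7, and for 344 of all 590 higher genes. The counts of 7 and 6 both include Hoxb5, which entered the test only through KOSR/LIF. The 7 also include Hoxb8, which was well above background on 2 KOSR/LIF arrays and 1 2i/LIF array only. The median change was 0.82. It was 0.26 with signals raised to the highest floor, where 3 genes passed, and without KOSR/LIF replicate 2 or 3 the count was 5. All 7 called genes, Hoxa2, Hoxa3, Hoxa4, Hoxb2, Hoxb5, Hoxb6 and Hoxb8, belong to the Hoxa and Hoxb clusters.

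Hoxb2 was at -1.36, -0.41 and -0.34 in KOSR/LIF, at -4.61, -5.90 and -4.86 in serum/LIF, and at -4.56, -5.59, -6.72, -6.28 and -4.48 in 2i/LIF. The gap between KOSR/LIF and the next array exceeded the spread within any medium. Its change was 4.62 ± 0.50 (adjusted p = 0.000792). The probe was well above background on only 1 serum/LIF and 1 2i/LIF array, and with dim signals raised the change was 3.84. Hoxb5 was at -2.79, -2.43 and -1.75 in KOSR/LIF and not well above background on any of the 8 other arrays, so it was at least 6.21-fold higher. It entered the test only through the KOSR/LIF arrays, where it is high, and its adjusted p of 0.00146 is no independent support. With signals raised to the highest floor it did not pass (adjusted p = 0.346). Hoxa2 was at -2.38, -2.48 and -1.36 in KOSR/LIF, at -6.30 to -5.32 in serum/LIF and at -6.38 to -3.50 in 2i/LIF, with no overlap and a change of 3.08 ± 0.54 (adjusted p = 0.00769; 2.34 with dim signals raised).

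Hoxa3 was at -0.67, 0.57 and -0.05 in KOSR/LIF. In 2i/LIF it was at -0.80, -3.98, -3.62, -4.54 and -1.01, and in serum/LIF at -4.48, -4.57 and -3.55. The KOSR/LIF arrays were apart, but 2i/LIF replicates 1 and 5 came close, and the change of 3.44 ± 0.76 (adjusted p = 0.0219) was lost without serum/LIF replicate 2 or any KOSR/LIF array (adjusted p 0.0503 to 0.0917). Hoxa4 changed by 1.11 (adjusted p = 0.0164) and Hoxb6 by 1.54 (adjusted p = 0.0128), both with arrays apart. Without KOSR/LIF replicate 2 or 3 Hoxa4 did not pass (adjusted p 0.0646 and 0.0598). Hoxb8 had overlapping arrays. It was above background on 2 KOSR/LIF arrays, 1 2i/LIF array and no serum/LIF array, so it only just entered the test. It was 3.73-fold higher with dim signals of the other media raised to each array's floor. Its adjusted p was 0.011 in the main fit but 0.122 with dim signals raised on all arrays.

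**Figure D1:**
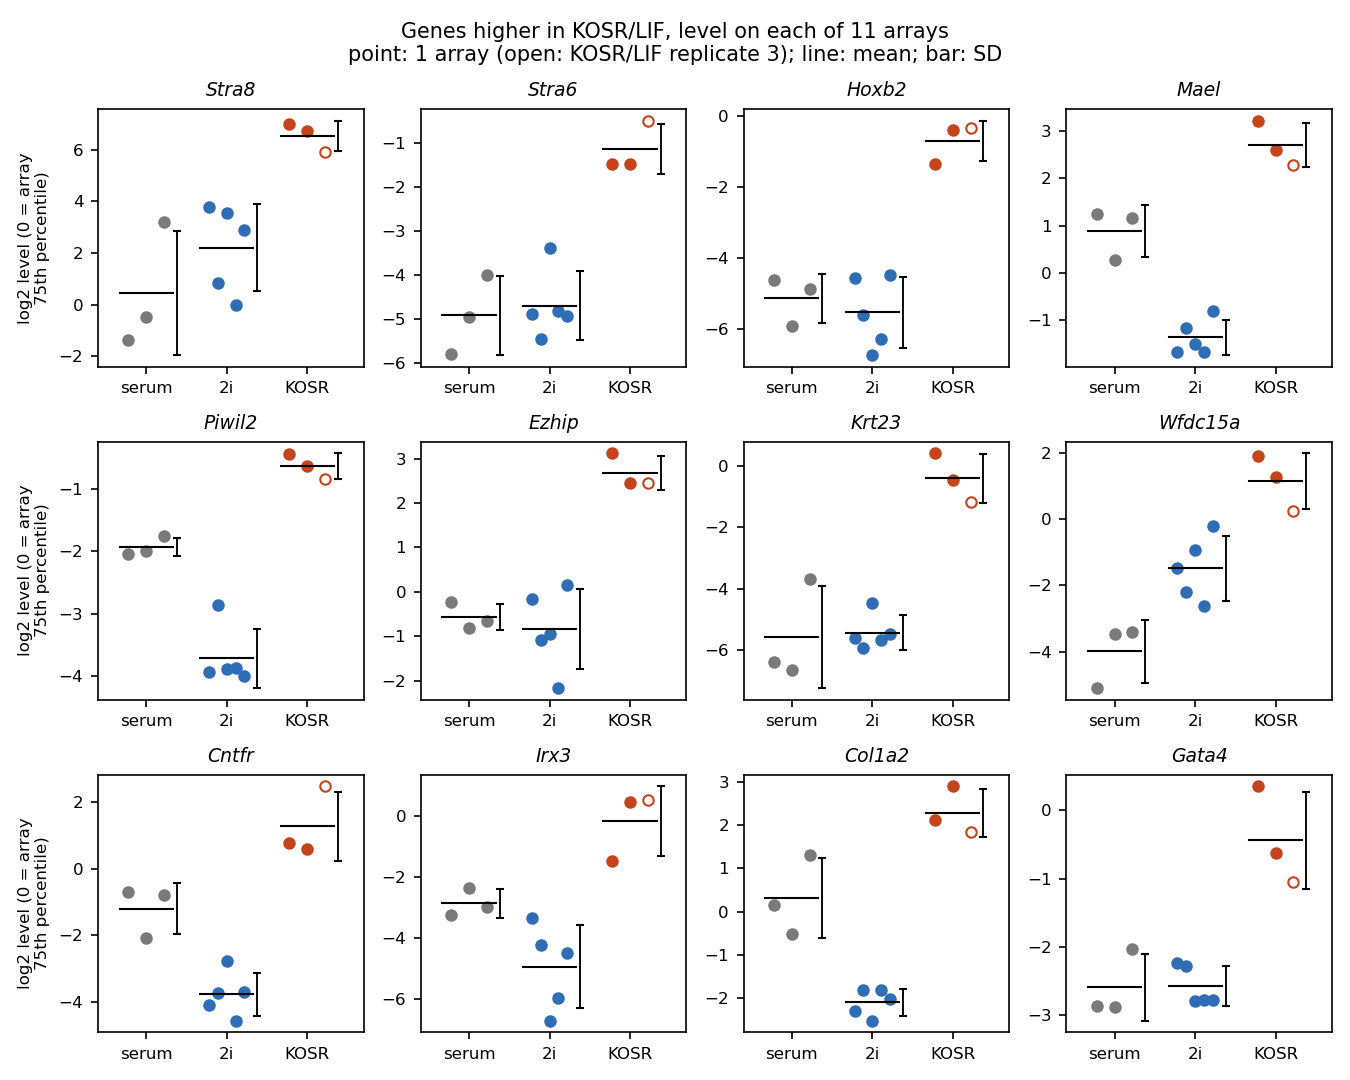
Level on each of the 11 arrays (log2, 0 = the array's 75th percentile) for 12 genes higher in KOSR/LIF, by medium, with the group mean (line) and SD (bar). Every KOSR/LIF point lies above all 8 other points in each panel, and the open point, KOSR/LIF replicate 3, is the lowest of the 3 for Stra8 (5.90) but the highest for Stra6 (-0.49).

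Germ cells and the piRNA pathway share many genes, because piRNAs guide PIWI proteins to silence transposons in the germ line. Of 28 such genes tested, 10 were higher and 1 was lower in KOSR/LIF (all genes 3.63% and 2.48%), 7 and 1 of them with arrays apart. Over all genes, arrays were apart for 344 of 590 higher and 269 of 403 lower genes. The list's median change was 1.30, and 0.62 with signals raised to the highest floor, where 6 rose. Without KOSR/LIF replicate 1 the number higher was 6, without replicate 3 it was 8, and with median scaling 5 were higher and 2 lower.

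Mael, a piRNA pathway protein of the germ cell nuage, was at 3.22, 2.60 and 2.29 in KOSR/LIF, at 1.24, 0.26 and 1.15 in serum/LIF, and at -1.67, -1.16, -1.51, -1.68 and -0.82 in 2i/LIF. The media formed 3 separate ranges with KOSR/LIF highest, and the change was 2.95 ± 0.30 (adjusted p = 0.000611). Piwil2, a PIWI protein, was at -0.44, -0.63 and -0.85 in KOSR/LIF, at -2.04, -1.99 and -1.76 in serum/LIF, and at -3.93, -2.86, -3.88, -3.87 and -3.99 in 2i/LIF. It had the same order of media without overlap, with a change of 2.18 ± 0.26 (adjusted p = 0.00119). Mael and Piwil2 passed under all 31 alternative settings tried. Slc25a31, a mitochondrial ADP/ATP carrier of male germ cells, was at -0.93, -1.53 and -2.14 in KOSR/LIF. It was at -5.21 to -4.29 in serum/LIF and at -4.41 to -3.39 in 2i/LIF. The change was 2.87 ± 0.31 (adjusted p = 0.000792) with arrays apart, although the probe was well above background on only 2 of 3 KOSR/LIF arrays.

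Asz1, a piRNA factor on mitochondria, was above background on 2 of 3 KOSR/LIF arrays, on no serum/LIF array and on 1 of 5 2i/LIF arrays. With 3 measured arrays, 2 of them KOSR/LIF, it only just entered the test, so its adjusted p of 0.00626 gives little independent support. It was 3.17-fold higher with dim signals of the other media raised to each array's floor. It passed with dim signals raised on all arrays (adjusted p = 0.0145), but not with normexp (adjusted p = 0.0938) or at the highest floor (adjusted p = 0.395). Mov10l1, the piRNA pathway's RNA helicase, was at -0.49, 0.13 and -2.14 in KOSR/LIF against -3.50 to -2.15 in serum/LIF and -4.90 to -2.56 in 2i/LIF. Its arrays were apart only by -2.1415 on KOSR/LIF replicate 3 against -2.1475 on serum/LIF replicate 1. The probe was well above background on only 2 of 3 KOSR/LIF arrays, so this narrow order is not reliable. The change of 2.45 ± 0.54 (adjusted p = 0.021) was lost without KOSR/LIF replicate 1 or 2 (adjusted p 0.0864 and 0.0981). Tdrd9 changed by 1.15 (adjusted p = 0.0101), but did not pass without KOSR/LIF replicate 2 (adjusted p = 0.0526), and passed under 21 of 29 settings. It counts among the genes with arrays apart, but was well above background on only 2 of 3 KOSR/LIF arrays. Replicate 3, at -3.33 against a floor of -2.50, has no measured order. The difference was 1.66 from serum/LIF (adjusted p = 0.00652) and 0.65 from 2i/LIF (adjusted p = 0.0873). Ddx4, the germ cell helicase known as Vasa, was at 0.98, 1.27 and 0.67 in KOSR/LIF, within reach of serum/LIF at 1.07, 0.46 and 0.13, while 2i/LIF ran from -2.07 to -0.96. Its difference from serum/LIF was 0.42 (adjusted p = 0.535) and from 2i/LIF 2.62 (adjusted p = 0.000183), and its change from the mean was lost without KOSR/LIF replicate 2 (1.37, adjusted p = 0.0505). Tdrd12, a piRNA biogenesis factor, moved the other way: it was at -0.55, -0.97 and -2.06 in KOSR/LIF, at 1.77, 1.00 and 2.19 in serum/LIF and at 1.33, 2.36, 2.33, 2.50 and 1.54 in 2i/LIF. All KOSR/LIF arrays were below all others, and the change was -3.02 ± 0.39 (adjusted p = 0.0016).

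Of the 24 listed germ cell genes with a promoter window, 10 had a window with CACGTG, an E-box whose sequence is the same on both strands. By window this was 11 of 29 (37.9%), against 1488 of 16165 windows of all tested genes (9.21%). The germ cell list was not chosen for this sequence, and the share was not tested. Windows of 3 genes that rose are shown with each CACGTG in capitals, from chr1:166238695-166238994 (Mael, minus strand), chr3:40708621-40708920 (Slc25a31, plus strand) and chr12:111971309-111971608 (Tdrd9, plus strand), all GRCm38.p6.
Mael: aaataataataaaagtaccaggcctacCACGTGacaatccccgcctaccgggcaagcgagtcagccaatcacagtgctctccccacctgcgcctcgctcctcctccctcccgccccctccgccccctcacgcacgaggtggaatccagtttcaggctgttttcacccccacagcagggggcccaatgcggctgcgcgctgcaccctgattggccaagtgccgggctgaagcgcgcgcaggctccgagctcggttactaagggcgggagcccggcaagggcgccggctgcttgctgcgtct
Slc25a31: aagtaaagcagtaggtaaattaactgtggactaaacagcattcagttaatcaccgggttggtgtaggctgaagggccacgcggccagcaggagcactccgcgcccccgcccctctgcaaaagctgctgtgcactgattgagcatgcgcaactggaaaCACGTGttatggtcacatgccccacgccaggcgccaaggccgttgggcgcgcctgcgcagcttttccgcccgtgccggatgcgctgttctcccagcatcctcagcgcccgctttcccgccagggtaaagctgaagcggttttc
Tdrd9: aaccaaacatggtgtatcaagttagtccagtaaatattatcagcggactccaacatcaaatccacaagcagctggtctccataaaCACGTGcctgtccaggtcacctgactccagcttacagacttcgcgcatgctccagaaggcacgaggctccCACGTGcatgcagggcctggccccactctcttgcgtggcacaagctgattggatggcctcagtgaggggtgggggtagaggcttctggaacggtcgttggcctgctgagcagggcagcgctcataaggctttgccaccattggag
The match lay 223 bases before the start in Mael and 93 bases before it in Slc25a31, and Tdrd9 held 2 matches. Windows of Mov10l1 and Ddx4 also held 1 match each.

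Outside the lists, Ezhip, a germ cell inhibitor of the Polycomb methyltransferase EZH2 that was singled out after its values were seen, was at 3.12, 2.46 and 2.44 in KOSR/LIF. It was at -0.23, -0.80 and -0.66 in serum/LIF and at -0.15, -1.09, -0.94, -2.16 and 0.16 in 2i/LIF, a change of 3.37 ± 0.42 (adjusted p = 0.0015) with arrays far apart. Ctcfl, the testis relative of CTCF, chosen in the same way, changed by 2.83 ± 0.57 (adjusted p = 0.0147) with arrays apart, and was lost without KOSR/LIF replicate 1 or 2 (adjusted p 0.0696 and 0.0742). The 14 tested genes of the 2-cell embryo-like state had a median change of 1.60, yet 0 passed in the limma fit, with 7 at an unadjusted p under 0.05. Up to 3 passed in 5 of the 31 alternative settings, and the median was 0.24 with signals raised to the highest floor. Zscan4c, its best known member, was at 2.35, 3.63 and 3.75 in KOSR/LIF, inside the 2i/LIF range of -2.45 to 3.69, with an adjusted p of 0.15 (0.0237 without 2i/LIF replicates 1 and 5).

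Primitive endoderm genes mark the extraembryonic lineage that faces the blastocyst cavity. In KOSR/LIF, 10 of 20 were higher and 0 lower (all genes 3.63% and 2.48%). Only 3 of the 10 had arrays apart, against 344 of all 590 higher genes. The list's median change was 1.78. The lineage's summed marker level was 6.33 to 18.9 in KOSR/LIF, 6.04 to 10.8 in serum/LIF and 0.474 to 1.41 in 2i/LIF. By array, the list's median above the reference was 2.73 on KOSR/LIF replicate 1, 1.77 on replicate 2 and 0.78 on replicate 3. The count fell to 2 without replicate 1 and rose to 12 without replicate 3. It was 3 with signals raised to the highest floor and 4 with median scaling.

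Gata4, a primitive endoderm transcription factor, was at 0.35, -0.63 and -1.04 in KOSR/LIF, at -2.88, -2.88 and -2.03 in serum/LIF and at -2.24, -2.28, -2.80, -2.78 and -2.79 in 2i/LIF. No arrays overlapped, and the change of 2.15 ± 0.31 (adjusted p = 0.00306) passed under all settings tried. Gata6, which acts upstream in the same lineage, was at 1.90, 1.17 and -2.36 in KOSR/LIF, at -4.54, -2.91 and -2.31 in serum/LIF and at -4.66, -2.24, -3.99, -5.77 and -3.37 in 2i/LIF. Replicates 1 and 2 were far above, and the level of replicate 3 lay inside the range of the others. Gata6 was well above background on only 2 of 3 KOSR/LIF arrays. Its change was 3.87 ± 0.92 (adjusted p = 0.0294) and did not pass without KOSR/LIF replicate 1 or 2 (3.03 and 3.40, adjusted p 0.13 and 0.116), or without serum/LIF replicate 1 or 2 (adjusted p 0.0653 and 0.0553). Without replicate 3 it was 5.16 (adjusted p = 0.00831). Pdgfra, the lineage's surface receptor, was at 0.13, -1.15 and -4.34 in KOSR/LIF and at -6.13 to -3.77 in the other media. It was well above background on only 2 of 3 KOSR/LIF arrays. On replicate 3 it lay below that array's floor of -2.50, so its place among the other media was not measured. Its adjusted p was 0.0323, and without KOSR/LIF replicate 1 or 2, serum/LIF replicate 1 or 2 or 2i/LIF replicate 4 it did not pass (adjusted p 0.0516 to 0.135).

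Sox7 was at -1.09 and -2.89 on KOSR/LIF replicates 1 and 2, and was not above background on replicate 3, on 2 of 3 serum/LIF arrays or on any 2i/LIF array. Whether replicate 3 lay above the others was thus not measured, although Sox7 counts among the 3 genes with arrays apart. With 3 measured arrays, 2 of them KOSR/LIF, Sox7 only just entered the test, so its adjusted p of 0.0117 gives little independent support. It was 4.03-fold higher with dim signals of the other media raised to each array's floor. It passed with dim signals raised on all arrays (adjusted p = 0.0188), but not at the highest floor (adjusted p = 0.388) or without KOSR/LIF replicate 1 (adjusted p = 0.0526). Dab2, an endocytic adaptor of this lineage, did not pass with all arrays (2.83, adjusted p = 0.0559) but did without KOSR/LIF replicate 3 (3.73, adjusted p = 0.0277). It was not well above background on replicate 3. The basement membrane collagen gene Col4a1 was at 2.45, 1.99 and -0.42 in KOSR/LIF and at 0.87, 0.58 and 1.27 in serum/LIF, so KOSR/LIF did not stand apart from serum/LIF (0.43, adjusted p = 0.796), whereas it exceeded 2i/LIF by 4.74 (adjusted p = 0.000911). Its change from the mean (adjusted p = 0.0397) was lost without any 1 of 7 arrays. Hhex, Cdx2 and T, markers of endoderm, trophectoderm and primitive streak, did not pass, with changes of -0.09, -1.77 and -2.20 and adjusted p of 0.919, 0.333 and 0.229.

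Markers of fibroblasts and feeder cells included 3 higher and 0 lower genes of 12 tested (all genes 3.63% and 2.48%), with a median change of 1.22 that was 0.17 with signals raised to the highest floor. Col1a2, a chain of type I collagen, was at 2.12, 2.90 and 1.84 in KOSR/LIF, at 0.15, -0.51 and 1.31 in serum/LIF and at -2.31, -1.82, -2.52, -1.82 and -2.02 in 2i/LIF. The media did not overlap, and the change of 3.18 ± 0.37 (adjusted p = 0.00119) passed under all settings tried. The part of such cells in the results on matrix and muscle genes was not tested. Acta2, smooth muscle actin, was at 2.30, 2.85 and 2.91 in KOSR/LIF within the serum/LIF range of 0.44 to 3.19. It changed by 2.86 against the mean (adjusted p = 0.0411) but by 0.59 against serum/LIF (adjusted p = 0.753), and was lost without any 1 of 9 arrays. Actg2, enteric smooth muscle actin, changed by 2.41 ± 0.55 with arrays apart (adjusted p = 0.0261), and lost the call without any 1 KOSR/LIF array or without serum/LIF replicate 2 or 3.

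The gene with the next largest rise after Stra8 was Krt23, a type I keratin, at 0.42, -0.44 and -1.17 in KOSR/LIF, at -6.39, -6.66 and -3.67 in serum/LIF and at -5.61, -5.93, -4.47, -5.67 and -5.47 in 2i/LIF. Every KOSR/LIF array was more than 2 log2 units above the highest other array, and the change was 5.11 ± 0.59 (adjusted p = 0.00119; 3.98 with dim signals raised). Trem2, a lipid-sensing receptor of macrophages, was above background on 3 of 3 KOSR/LIF arrays (-1.88, -2.47 and -1.48) and on none of the 8 others, at least 8.06-fold higher. It too entered the test only through KOSR/LIF, so its adjusted p of 9.3e-05 is no independent support, and it did not pass with normexp (adjusted p = 0.076) or at the highest floor (adjusted p = 0.103). Wfdc15a, a secreted protein with a whey acidic protein domain, was at 1.91, 1.26 and 0.26 in KOSR/LIF, at -5.08, -3.47 and -3.42 in serum/LIF and at -1.48, -2.18, -0.94, -2.63 and -0.20 in 2i/LIF, a change of 3.88 ± 0.55 (adjusted p = 0.00263) with 2i/LIF closest.

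Cntfr, the ciliary neurotrophic factor receptor that signals with LIF's receptor chains, was at 0.76, 0.60 and 2.47 in KOSR/LIF, at -0.72, -2.10 and -0.79 in serum/LIF and at -4.10, -3.75, -2.78, -4.58 and -3.72 in 2i/LIF. KOSR/LIF was highest and 2i/LIF lowest, without overlap, and the change was 3.77 ± 0.48 (adjusted p = 0.00157). Irx3, a homeobox gene of the neural plate, changed by 3.74 ± 0.67 (adjusted p = 0.00831; 3.40 with dim signals raised) with arrays apart.

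Tcf23, Nostrin, Pfn4, Arg1 and Pdzd3 were each above background on 2 of 3 KOSR/LIF arrays and at most 1 array of the others. They were 8.28-, 5.24-, 5.27-, 4.02- and 4.36-fold higher with dim signals of the other media raised to each array's floor. With 3 measured arrays each, most of them KOSR/LIF, they only just entered the test. All 5 passed with dim signals raised (adjusted p 0.00611 to 0.0272) and none at the highest floor (adjusted p 0.231 to 0.388), and with normexp Nostrin, Pfn4 and Arg1 did not pass. Pfn4 was also lost without KOSR/LIF replicate 2 (adjusted p = 0.0505). Car9, the carbonic anhydrase induced by hypoxia, was at -0.86, 0.01 and -1.60 in KOSR/LIF against -3.35 to -1.73 elsewhere, a change of 1.91 ± 0.36 (adjusted p = 0.0103; 0.0509 without KOSR/LIF replicate 2). Of 18 hypoxia genes 4 rose (all genes 3.63%), with a list median of 0.46, and 0 passed without KOSR/LIF replicate 2 or with median scaling. Egln1, the oxygen-sensing prolyl hydroxylase, changed by 1.30 (adjusted p = 0.0235), and was lost without serum/LIF replicate 1 or any KOSR/LIF array.

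Naive pluripotency genes mark ES cells that match the preimplantation epiblast. Of 19 tested, 0 were higher and 10 lower in KOSR/LIF (all genes 3.63% and 2.48%), and the median change was -0.96. Arrays were apart for 7 of the 10, and for 269 of all 403 lower genes. The number lower was 6 without KOSR/LIF replicate 1 or 3 or serum/LIF replicate 1 or 2, and 7 to 12 under median scaling, normexp and the highest floor. On KOSR/LIF replicates 1, 2 and 3 the list's median was -0.89, -0.80 and -1.24 from the reference.

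Dppa3, which protects the maternal genome from demethylation, was at 0.17, 0.34 and -1.28 in KOSR/LIF, at 1.90, 2.69 and 3.16 in serum/LIF and at 1.68, 3.46, 2.42, 2.98 and 2.02 in 2i/LIF. KOSR/LIF lay below both media, which overlapped each other, and the change was -2.80 ± 0.45 (adjusted p = 0.00517). Tfcp2l1, a naive factor downstream of LIF, was at 2.43, 2.59 and 1.97 in KOSR/LIF, at 3.47, 3.69 and 4.11 in serum/LIF and at 5.48, 4.72, 5.25, 5.30 and 5.28 in 2i/LIF. The media were ordered KOSR/LIF, serum/LIF, 2i/LIF without overlap, and the change was -2.15 ± 0.23 (adjusted p = 0.000792). Tcl1, an AKT cofactor, had the same order, at 3.17, 3.63 and 2.11 in KOSR/LIF, 4.63 to 4.81 in serum/LIF and 5.03 to 5.77 in 2i/LIF (change -2.11 ± 0.29, adjusted p = 0.00234).

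Klf2, a naive factor that MEK signalling destabilises, was at 3.89, 4.11 and 4.89 in KOSR/LIF, at 5.86, 6.12 and 5.88 in serum/LIF and at 6.42, 5.97, 5.58, 6.28 and 6.26 in 2i/LIF. Serum/LIF and 2i/LIF were alike in range and KOSR/LIF lay below, with a change of -1.73 ± 0.26 (adjusted p = 0.00335). Dppa3, Tfcp2l1, Tcl1 and Klf2 passed under all settings tried. Nr5a2, Fgf4 and Esrrb fell less, by -1.32 (adjusted p = 0.0115), -0.93 (adjusted p = 0.024) and -0.85 (adjusted p = 0.0389), with arrays apart. Nr5a2 was lost without KOSR/LIF replicate 1 (adjusted p = 0.0516), Fgf4 without any 1 of 4 arrays and Esrrb without any 1 of 9.

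Zfp42 just missed the rule of arrays apart: its highest KOSR/LIF level was 5.95 and its lowest other level 5.93, and its change of -0.96 (adjusted p = 0.0397) was lost without any 1 of 10 arrays. Tcf15, a formative epiblast gene, only just met it in the other direction, with a lowest KOSR/LIF level of 4.40 against 4.31 on the highest other array. Its change of 1.97 ± 0.35 (adjusted p = 0.00769) came from 2i/LIF (3.48, adjusted p = 0.000125), since its difference from serum/LIF was 0.45 (adjusted p = 0.589). Spic and Prdm14, the latter lost without any 1 of 8 arrays, were likewise close to serum/LIF (differences -0.37 and -0.24, adjusted p 0.642 and 0.693) and far below 2i/LIF (-4.83 and -1.70, adjusted p 1.47e-05 and 0.00121).

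Among 18 general pluripotency genes, 1 was higher and 2 were lower (all genes 3.63% and 2.48%), with a median change of -0.20. Pou5f1 was at 5.92, 5.65 and 3.69 in KOSR/LIF, at 6.14, 6.26 and 6.14 in serum/LIF and at 6.03, 5.83, 6.25, 6.27 and 6.14 in 2i/LIF. Replicate 3 was far below the other 10 arrays, and the difference was -1.05 (adjusted p = 0.144), or -0.35 (adjusted p = 0.376) without it. Sox2 was at 2.90, 2.79 and 2.17 in KOSR/LIF, at 3.88, 3.82 and 4.22 in serum/LIF and at 3.54, 3.19, 3.46, 3.56 and 3.35 in 2i/LIF. Its arrays were apart, and the change was -1.08 ± 0.21 (adjusted p = 0.0124; -0.85 and 0.0372 without KOSR/LIF replicate 3). Nanog was at 2.93, 3.45 and 1.21 in KOSR/LIF, overlapping serum/LIF at 3.26, 3.50 and 3.78, and the difference of -1.40 did not pass (adjusted p = 0.0549). A second Nanog probe differed in sign, at 2.76, so its direction is uncertain. Klf4 differed by -0.23 (adjusted p = 0.722). Utf1 rose by 1.64 (adjusted p = 0.048) through 2i/LIF, its difference from serum/LIF was 0.22 (adjusted p = 0.844), and it was lost without any 1 of 8 arrays.

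**Figure D2:**
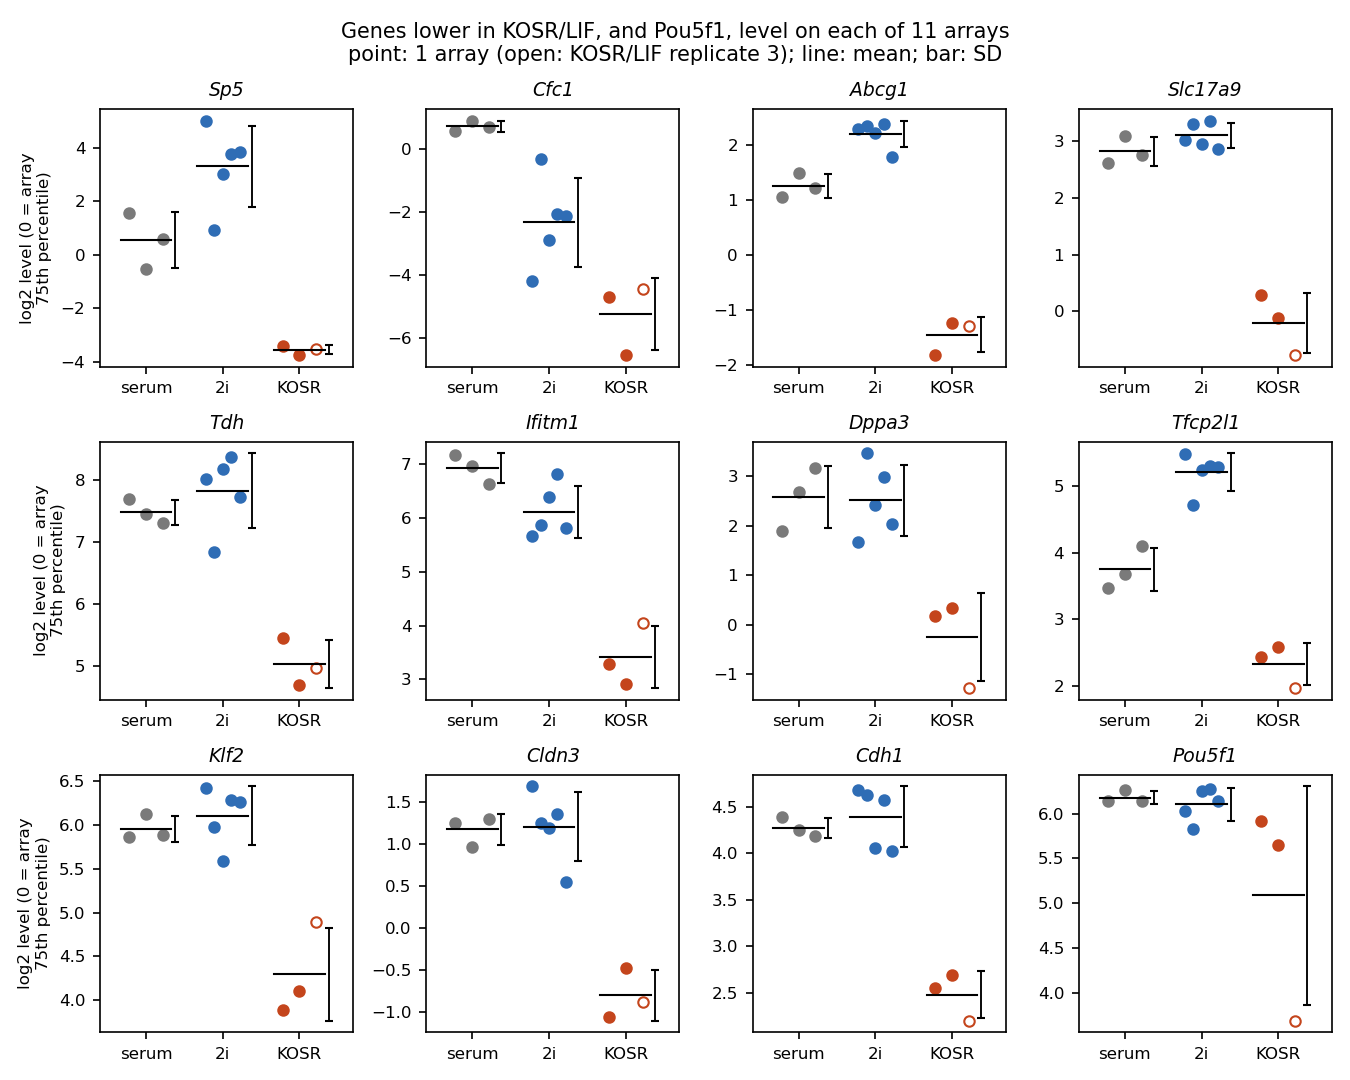
Level on each of the 11 arrays (log2, 0 = the array's 75th percentile) for 11 genes lower in KOSR/LIF and for Pou5f1, by medium, with the group mean (line) and SD (bar). The KOSR/LIF points lie below all others in the panels of the 11 lower genes, and for Pou5f1 the open point, KOSR/LIF replicate 3, is at 3.69 while replicates 1 and 2 are at 5.92 and 5.65.

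Epithelial junction genes hold ES cells in compact colonies. Of 30 junction and keratin genes, 0 were higher and 7 lower (all genes 3.63% and 2.48%), with a median change of -0.75. Arrays were apart for 4 of the 7, and for 269 of all 403 lower genes. The number lower was 4 without KOSR/LIF replicate 3 or serum/LIF replicate 1, and the list's median was -0.40, -0.74 and -1.46 on KOSR/LIF replicates 1, 2 and 3. Cdh1, E-cadherin, was at 2.55, 2.69 and 2.20 in KOSR/LIF, at 4.39, 4.25 and 4.18 in serum/LIF and at 4.68, 4.63, 4.05, 4.57 and 4.03 in 2i/LIF. The 8 other arrays lay within 1 log2 unit of each other and well above KOSR/LIF (change -1.85 ± 0.22, adjusted p = 0.00119).

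Cldn3, a tight junction claudin, was at -1.06, -0.47 and -0.88 in KOSR/LIF, at 1.25, 0.97 and 1.30 in serum/LIF and at 1.69, 1.25, 1.19, 1.36 and 0.55 in 2i/LIF, and was 3.99-fold lower (adjusted p = 0.0015). Its paralog Cldn4 was at -1.56, -0.57 and -3.88 against 0.09 to 1.39 on the 8 others, a change of -2.87 ± 0.52 (adjusted p = 0.0091; -2.41 with dim signals raised). St14, the membrane protease matriptase, changed by -1.54 ± 0.27 (adjusted p = 0.00715). Rab25, an epithelial recycling GTPase outside the list, was at -1.95, -2.75 and -4.28 in KOSR/LIF, at 1.46, 1.20 and 0.58 in serum/LIF and at -0.74, -0.21, -0.67, 0.07 and -1.72 in 2i/LIF, a change of -3.21 ± 0.48 (adjusted p = 0.00337; -2.62 with dim signals raised). All KOSR/LIF arrays of these 5 junction and trafficking genes were below the 8 others, and all 5 passed under every setting tried.

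Of 24 collagen, laminin and adhesion genes, 2 were higher and 3 lower (all genes 3.63% and 2.48%). Col4a1 and Col4a2 were higher with overlapping arrays, and Nid1, Fn1 and Itgb5 were lower with arrays apart. The list's median was 0.08, and -0.25 with median scaling. Nid1, a basement membrane linker, changed by -1.77 ± 0.25 (adjusted p = 0.00253), mostly from 2i/LIF (-2.75, adjusted p = 7.45e-05), with -0.80 from serum/LIF (adjusted p = 0.174). Fn1, fibronectin, changed by -0.86 (adjusted p = 0.0336) and Itgb5, an integrin, by -0.93 (adjusted p = 0.0489). Fn1 was lost without any 1 of 4 arrays and Itgb5 without any 1 of 9, KOSR/LIF replicate 3 among them (adjusted p 0.101 and 0.113), and 1 of the list's 24 genes was lower without that array.

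Genes of signalling pathways were among those that fell. Sp5, a direct target of Wnt and beta-catenin, was at -3.41, -3.74 and -3.51 in KOSR/LIF, at 1.56, -0.52 and 0.59 in serum/LIF and at 5.03, 0.93, 3.04, 3.79 and 3.83 in 2i/LIF. KOSR/LIF was lowest, although replicate 3 lay below its array's floor of -2.50, so its exact level was not measured. The mean of 2i/LIF was highest, but its range overlapped that of serum/LIF. The change was -5.49 ± 0.70 (adjusted p = 0.00157, -5.15 with dim signals raised). Of 17 tested Wnt targets Sp5 alone passed (all genes 6.1% in either direction), and that list's median was -0.56. Cfc1, a Nodal co-receptor, was not above background on any KOSR/LIF array, was at 0.57, 0.91 and 0.72 in serum/LIF and at -4.19, -0.30, -2.90, -2.06 and -2.13 in 2i/LIF, and was at least 8.54-fold lower (adjusted p = 0.00375).

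Fst, follistatin, which traps activin, was at -1.84, -1.56 and -1.60 in KOSR/LIF, at 0.61, 0.12 and -0.04 in serum/LIF and at 0.34, 0.80, 0.29, 1.18 and 0.13 in 2i/LIF, a change of -2.06 ± 0.26 (adjusted p = 0.0015). Lefty2, a Nodal inhibitor, changed by -1.92 (adjusted p = 0.0382) with overlapping arrays, and was lost without any 1 of 8 arrays. Cfc1, Fst and Lefty2 were the 3 lower genes among 17 Nodal genes (all genes 2.48%), whose median was -0.09. Id4, a BMP target, changed by -2.75 ± 0.46 (adjusted p = 0.00599). It was the 1 gene of 15 in the BMP list to pass (all genes 6.1% in either direction). The Notch ligand Jag1 was at -1.19, -0.57 and -1.17 in KOSR/LIF against 0.39 to 1.38 on the 8 others (change -1.66 ± 0.24, adjusted p = 0.00288), and the Notch modulator Dtx1 changed by -1.46 (adjusted p = 0.012; 0.0652 without KOSR/LIF replicate 1). Spp1, osteopontin, changed by -1.29 (adjusted p = 0.0241), and was lost without serum/LIF replicate 3 or any KOSR/LIF array.

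Among other large falls, Adgrg1, an adhesion G protein-coupled receptor, was at -4.57, -3.36 and -4.46 in KOSR/LIF, at -0.87, -1.18 and -0.69 in serum/LIF and at 1.27, 0.69, 1.44, 1.58 and -0.29 in 2i/LIF. The change was -4.14 ± 0.40 (adjusted p = 0.000588), or -3.44 with dim signals raised. Rasgrp1, a Ras activator, fell in the same pattern (-3.61 ± 0.29, adjusted p = 0.000154, -3.14 with dim signals raised). Adgrg1 and Rasgrp1 were each well above background on only 1 of 3 KOSR/LIF arrays. Ntn1, the guidance cue netrin, was at -3.01, -3.24 and -1.43 in KOSR/LIF, at 0.50, 1.03 and 0.23 in serum/LIF and at 1.21, 0.80, 1.15, 1.71 and 1.64 in 2i/LIF (change -3.50 ± 0.37, adjusted p = 0.000792). Nrp2, a semaphorin co-receptor, changed by -3.19 ± 0.49 (adjusted p = 0.00403), and Rab38, a trafficking GTPase, by -3.01 ± 0.35 (adjusted p = 0.00119), the latter by -1.53 from serum/LIF (adjusted p = 0.0627). Pla2g4e, a phospholipase, and Cabs1, a sperm protein, were above background on no KOSR/LIF array and were at least 5.43- and 4.07-fold lower. Pla2g4e passed with dim signals raised but not with normexp (adjusted p = 0.0835), and Cabs1 passed with neither (adjusted p 0.115 and 0.36). Cabs1 lost the call without KOSR/LIF replicate 2 or serum/LIF replicate 1 (adjusted p 0.102 and 0.0531). Mal, a raft protein, changed by -3.91 ± 0.66 (adjusted p = 0.00638, -3.33 with dim signals raised), but did not pass within the shared scan day (-3.48, adjusted p = 0.106). It was well above background on only 1 of 3 KOSR/LIF arrays. The call was also lost with normexp, with slide as a block and at the highest floor.

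Several metabolic and transport genes fell with arrays apart. Abcg1, a cholesterol exporter induced by liver X receptors, was at -1.82, -1.23 and -1.30 in KOSR/LIF, at 1.04, 1.49 and 1.22 in serum/LIF and at 2.29, 2.33, 2.22, 2.37 and 1.77 in 2i/LIF. Its 3 ranges were narrow and far apart, and the change was -3.17 ± 0.22 (adjusted p = 6.18e-05). The 27 cholesterol synthesis genes had 0 calls and a median of 0.20. Slc17a9, a vesicular nucleotide transporter, was at 0.28, -0.12 and -0.77 against 2.61 to 3.36 on all 8 other arrays (change -3.16 ± 0.25, adjusted p = 0.000113). Tdh, threonine dehydrogenase, on which mouse ES cells depend for threonine catabolism, was at 5.46, 4.69 and 4.97 in KOSR/LIF, at 7.69, 7.44 and 7.30 in serum/LIF and at 8.01, 6.83, 8.17, 8.37 and 7.73 in 2i/LIF. That fall of -2.61 ± 0.31 (adjusted p = 0.00127) separated KOSR/LIF from both media. Sat1, which acetylates polyamines, was at -0.70, -0.19 and -1.50 against 1.52 to 3.13 on the others (change -2.92 ± 0.36, adjusted p = 0.0015). Tdh and Sat1 were chosen after their values were seen, and both passed under all settings tried. Elovl7, a fatty acid elongase, changed by -1.84 ± 0.34 (adjusted p = 0.00969).

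Of 20 genes of the ATF4 amino acid response, 0 were higher and 5 lower (all genes 3.63% and 2.48%), with a median of -0.50. All 5 had arrays apart, against 269 of all 403 lower genes. The transsulfuration enzymes Cth and Cbs changed by -1.73 ± 0.33 (adjusted p = 0.0115) and -1.40 ± 0.29 (adjusted p = 0.0152). Cth was lost without KOSR/LIF replicate 3 (adjusted p = 0.0526), and Cbs without replicate 1 or 2 (adjusted p 0.0551 and 0.0757). Atf4 itself was at 6.46, 6.19 and 5.65 in KOSR/LIF against 6.89 to 7.67 on the 8 others, a change of -1.16 ± 0.25 (adjusted p = 0.021), which missed the threshold without KOSR/LIF replicate 2 or 3 (adjusted p 0.0638 and 0.0778). Without KOSR/LIF replicate 3, 2 of the 20 were lower.

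The metallothioneins Mt1 and Mt2, which bind zinc and copper, were lower. Mt1 was at 6.84, 6.49 and 4.87 in KOSR/LIF, at 7.90, 8.10 and 6.95 in serum/LIF and at 8.23, 8.23, 9.27, 9.35 and 8.34 in 2i/LIF, apart by a small margin (change -2.10 ± 0.45, adjusted p = 0.0185; -1.50 and 0.0678 without KOSR/LIF replicate 3). Mt2 changed by -1.24 (adjusted p = 0.0339) with overlapping arrays, and was lost without any 1 of 6 arrays. The zinc exporter Slc30a1 changed by -1.09 (adjusted p = 0.0282), and was lost without KOSR/LIF replicate 1 or 3 or serum/LIF replicate 2 or 3. Steap3, an iron reductase, rose by 1.31 ± 0.29 with arrays apart (adjusted p = 0.0203), and was lost without KOSR/LIF replicate 2 or 3 or serum/LIF replicate 1. Gstm1, a glutathione transferase, was at 1.73, 2.47 and 1.56 against 3.10 to 4.39 on the 8 others (change -1.68 ± 0.28, adjusted p = 0.00599). Ifitm1, a membrane protein induced by interferon and marking early germ cells, was at 3.28, 2.92 and 4.05 in KOSR/LIF, at 7.18, 6.97 and 6.64 in serum/LIF and at 5.66, 5.87, 6.39, 6.82 and 5.81 in 2i/LIF. Its fall of -3.10 ± 0.31 (adjusted p = 0.000611) left no overlap.

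Smaller falls in the lysosome and p53 lists did not withstand leaving arrays out. In the lysosome and autophagy list 4 of 23 genes were lower (all genes 2.48%), with a list median of -0.57. Among them were Tfeb (-1.28, adjusted p = 0.0208), the regulator of lysosome genes, Lamp2 (-1.11, adjusted p = 0.0376) and Ulk1 (-0.87, adjusted p = 0.0318). The count was 0 without KOSR/LIF replicate 2 or 3 or serum/LIF replicate 1 or 2. Of 18 p53 targets, 3 were lower (all genes 2.48%), including Tigar (-1.01, adjusted p = 0.0259) and Trp53inp1 (-0.86, adjusted p = 0.0436). In that list 0 were lower without KOSR/LIF replicate 1. Plagl1, an imprinted zinc finger gene, kept its call whichever single array was left out. It changed by -2.88 (adjusted p = 0.00517), mostly from 2i/LIF (-4.35, adjusted p = 0.000186, against -1.41 and 0.196 from serum/LIF), and its 4 probes ranged from -3.00 to 0.48.

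Single members of other lists rose with arrays apart, among them Sox1, a neural gene (1.55, adjusted p = 0.0352), and Lmo2, a blood gene (1.59, adjusted p = 0.0429). Meox1, a mesoderm gene, and Pck1, which insulin represses, passed (adjusted p 0.00599 and 0.0178) but not with dim signals raised (adjusted p 0.0722 and 0.156). They were 2.34- and 2.03-fold higher when dim signals were raised in the other media only. Pck1 was above background on 2 KOSR/LIF arrays and 1 serum/LIF array, so it only just entered the test. Sox1 was lost without any 1 of 7 arrays, Lmo2 without any 1 of 9 and Pck1 without any 1 KOSR/LIF array. A second Sox1 probe changed by only 0.31, and Sox1 did not pass with the mean of its probes. Of 43 lists, 36 had at least 1 call. The 7 with 0 calls, at the same threshold, were the 2-cell embryo-like list (14 genes), cholesterol synthesis (27), glycolysis (21), unfolded protein response and heat shock (16), Polycomb complexes (31), oxidative phosphorylation (28) and cytosolic ribosomal proteins (29). In the limma fit 7, 1, 5, 2, 9, 2 and 1 of their genes, in that order, had an unadjusted p under 0.05. Under the 31 alternative settings the ribosomal list had 0 calls in any, and the others at least 1 call in 2 to 11 settings.

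**Figure D3:**
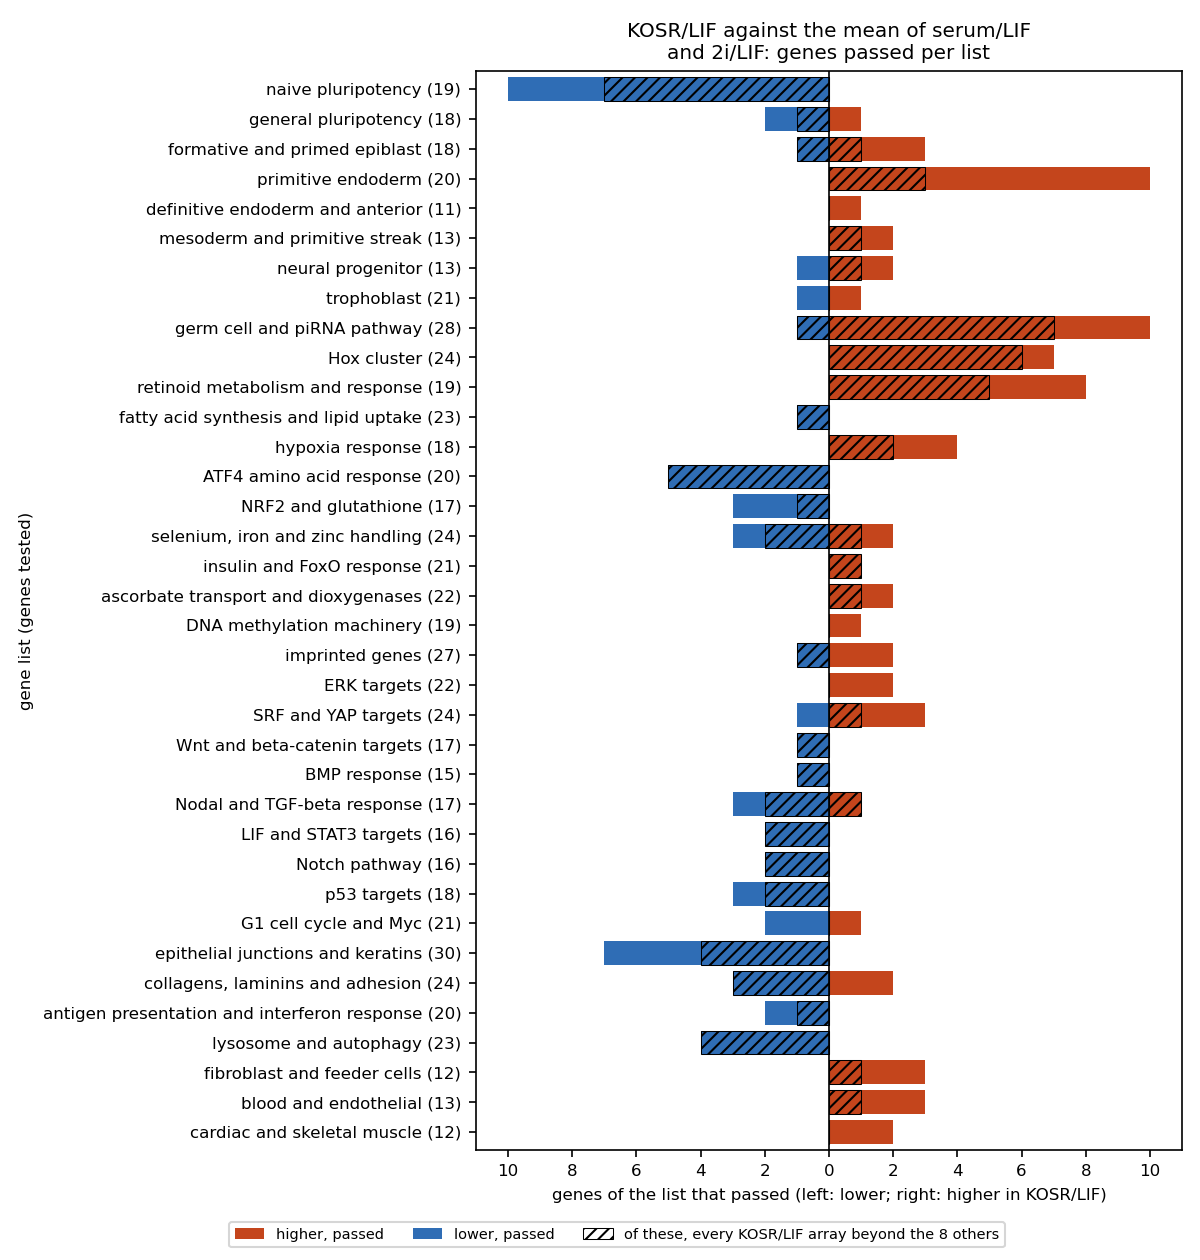
Number of genes of each list that passed in KOSR/LIF against the mean of the other media, lower to the left and higher to the right, for the 36 lists with a call. Brackets give the genes tested, and hatching the genes with every KOSR/LIF array beyond the 8 others, as for 7 of the 10 naive pluripotency genes and 3 of the 10 primitive endoderm genes.

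**Figure D4:**
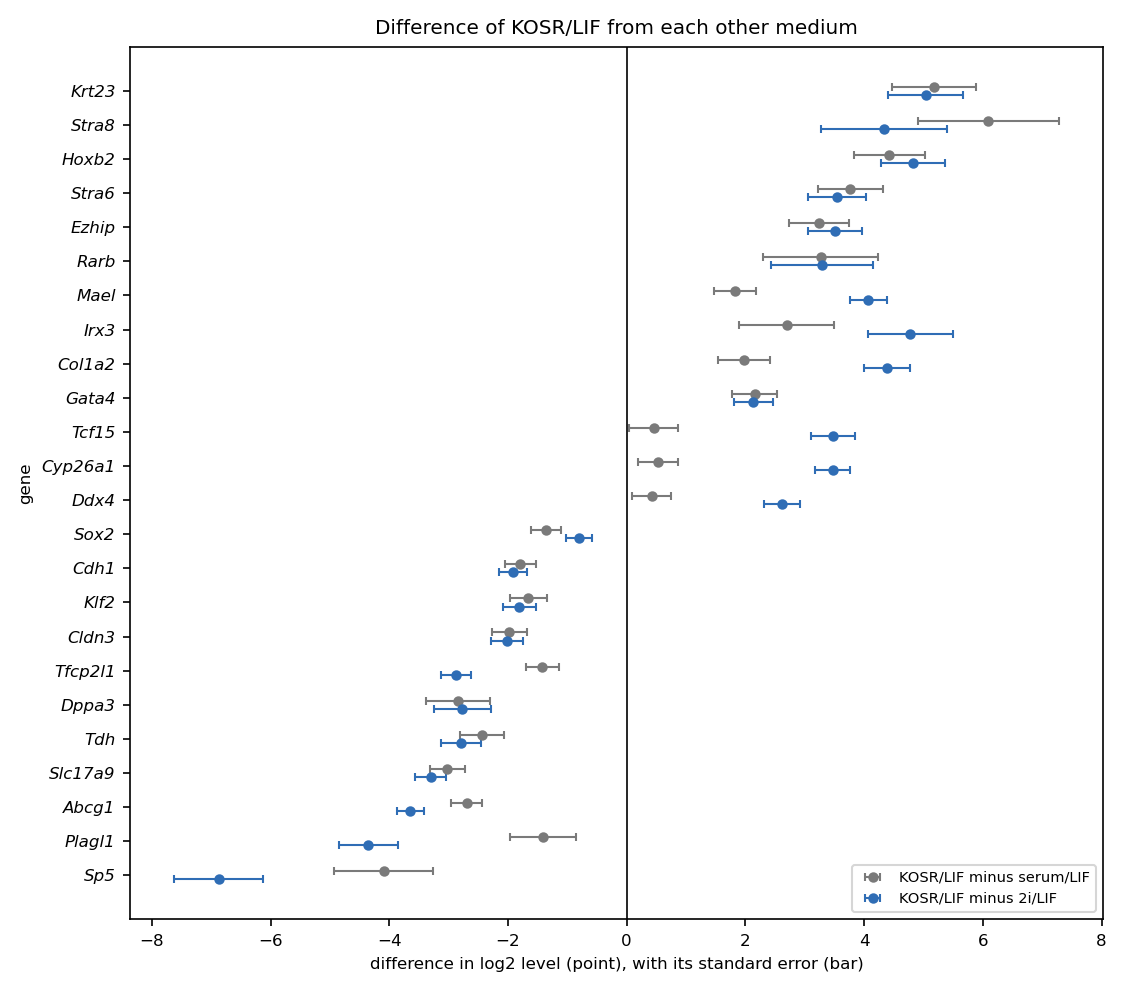
Difference in log2 level of KOSR/LIF from serum/LIF (grey) and from 2i/LIF (blue), with standard errors, for 24 genes. Stra6, Hoxb2, Cdh1 and Dppa3 differ about equally from both media, whereas Tcf15, Cyp26a1 and Ddx4 lie within 0.53 of serum/LIF, and both differences of a gene share the KOSR/LIF arrays.

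KOSR/LIF replicate 3 changed which genes were called. Of the 590 higher genes, 264 passed only with it, and 66 others passed only without it, 51 of them with the remaining arrays apart. Of the 403 lower genes, 203 passed only with it, and 33 others only without it, 21 of them with arrays apart. Among the genes called only without it, Ubash3b, a phosphatase, was at -0.05 and -0.20 on KOSR/LIF replicates 1 and 2 and at -3.05 on replicate 3, and its change without replicate 3 was 3.22 (adjusted p = 0.00831). Slc5a4b, a sugar transporter gene, was at -0.03 and -0.94 against -3.62 on replicate 3 (3.79 without it, adjusted p = 0.0256). On replicate 3, Ubash3b and Slc5a4b lay below that array's floor of -2.50, so their levels there were not measured. Krtdap, a keratinocyte gene, was at -5.05 and -4.23 against -2.04 on replicate 3 (-2.59 without it, adjusted p = 0.0198). It was well above background on only 1 KOSR/LIF array. Aldh1a3, a retinaldehyde dehydrogenase, and Nod2, an innate immune receptor, passed as lower without replicate 3 (adjusted p = 0.0358 and 0.0342). Neither was above background on any KOSR/LIF array, so their levels there were not measured, and over all arrays with dim signals raised their adjusted p was 0.739 and 0.813.

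**Figure D5:**
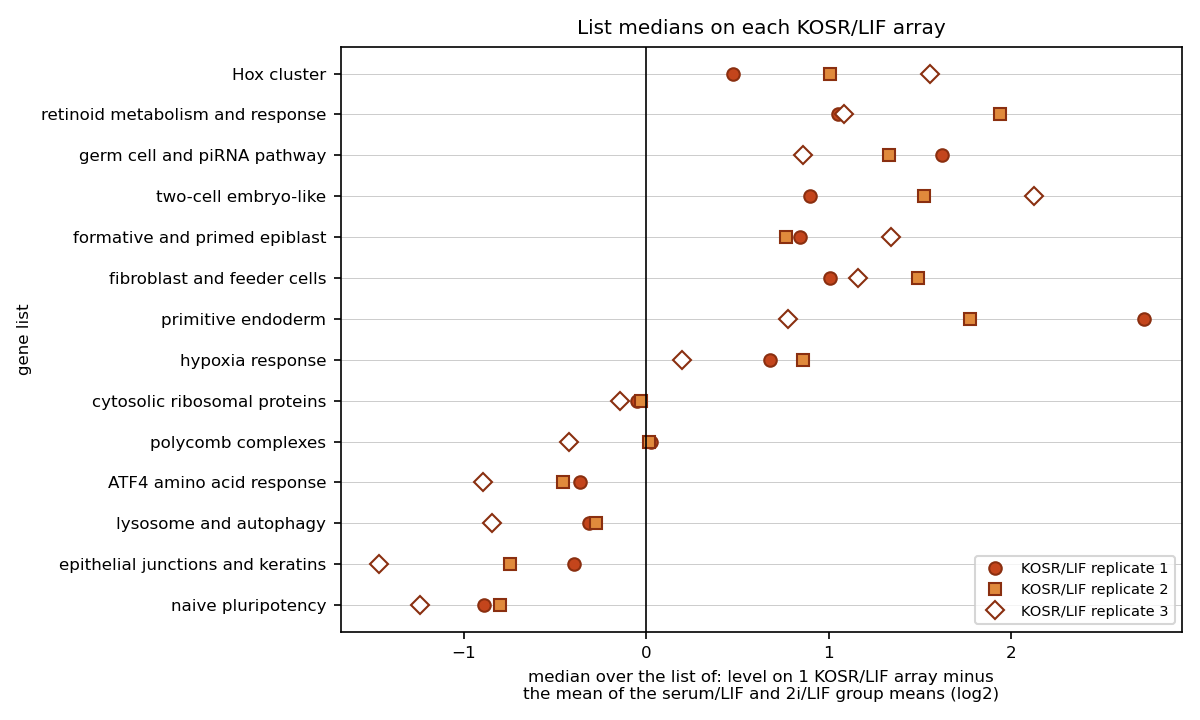
Median, over each of 14 lists, of the level on 1 KOSR/LIF array minus the mean of the serum/LIF and 2i/LIF group means (log2). The 3 KOSR/LIF arrays fall on the same side of 0 for every list but the Polycomb list, and the primitive endoderm list spreads most, from 0.78 to 2.73.

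Of the 344 genes higher with arrays apart, 71 kept the call without KOSR/LIF replicate 3, with median scaling, within the shared scan day and with signals raised to the highest floor, and so did 110 of the 269 lower genes. For 229 of the 344 and 207 of the 269, the probe was well above background on all 3 KOSR/LIF arrays.

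Promoters of both groups held fewer CpG dinucleotides than those of all tested genes. The median ratio of observed to expected CpG was 0.513 over 332 windows of 260 higher genes, 0.56 over 298 windows of 210 lower genes and 0.689 over 16165 windows of 12910 tested genes. TATAAA was found in 7.53%, 10.1% and 9.07% of these windows on either strand, CACGTG in 8.13%, 10.1% and 9.21%, and TGACGTCA, a cAMP response element, in 0.602%, 2.68% and 2.71%. These shares were not tested.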

How the data were processed

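Per the file headers, the deposited processed intensity of a spot is linear, and Agilent Feature Extraction 11.0.1.1 had subtracted the background but not scaled arrays to each other. The authors labelled RNA with Cy3 by Agilent's 1-colour protocol, per the labels' protocols. Of 62976 spots, 59305 were not controls, and unflagged spots were averaged by probe. Outlier flags removed 33 of the 55681 probes. Through RefSeq accessions 27636 probes were named, for 20960 genes. Levels are log2 of the deposited intensity minus each array's 75th percentile. A probe had to be well above background on at least 3 of 11 arrays (21268 probes), and the probe with the highest mean stood for a gene, leaving 16275 genes. The number of arrays limits the precision.

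limma 3.58.1 in R 4.3.3 (lmFit and eBayes, 8 residual degrees of freedom) was fitted to all 11 arrays without a block, with KOSR/LIF set against the mean of the other group means, and p-values were adjusted over all genes (Benjamini-Hochberg, 0.05). The script was tested on simulated data. Samples with the same replicate number did not deviate together, so the numbers were not taken to pair them. "At least" folds set a measured group against the floor of arrays where the probe was not well above background, the floor being each array's lowest signal well above background. Where a higher gene was not well above background on every KOSR/LIF array, its KOSR/LIF levels were left unraised, so its fold is no bound. The deposited value table, also linear intensity (column medians 46.5 to 47.8), was an alternative, with processing not given in the sources used here. Since the files give no mean signal, normexp used the median signals. Other alternatives were scaling, filters, probe choice, blocks, array weights, floors and leaving out arrays.

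Named genes are 13 fixed lineage and pluripotency genes, up to 3 genes with arrays apart per list and direction, the 15 highest and 15 lowest genes with arrays apart, and up to 3 per direction that passed only without KOSR/LIF replicate 3. Chosen after their values were seen were Slc25a31, Piwil2, Mov10l1, Tdrd9, Ddx4, Dhrs3, Cyp26b1, Cyp26a1, Crabp2, Meis1, Hoxa2, Hoxa4, Hoxb6, Hoxb8, Klf2, Nr5a2, Fgf4, Spic, Utf1, St14, Sat1, Tdh, Ezhip, Ctcfl, Zscan4c, Mt2, Pdgfra, Col4a1, Acta2 and Lefty2. The comparison and all lists were chosen with earlier results of these data known. Some genes that meet this rule are not reported here.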

Additional observations from a re-analysis of the deposited data

Results flagged for a closer look

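A level far from those of the other arrays of its group was found in 2i/LIF for 3 of the named genes. Such a gap arises by chance in about 1 in 20 groups, and the cause was not tested. Abcg1 was at 1.77 on 2i/LIF replicate 5 and at 2.22 to 2.37 on the other 2i/LIF arrays, all above KOSR/LIF. Acta2 was at 0.0427 on 2i/LIF replicate 2 and at -3.43 to -2.56 on the others. Piwil2 was at -2.86 on 2i/LIF replicate 2 and at -3.99 to -3.87 on the others, all below KOSR/LIF.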

How the results depend on the processing

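Of 590 genes higher, 403 lower, 344 higher with arrays apart and 269 lower with arrays apart, the counts moved by over 1.5 times under these settings. Normexp gave 269 higher, 175 apart. Median scaling gave 214 higher, 93 apart. Raising all signals to the highest floor, chosen after the data were seen, gave 366 higher. Array weights gave 1967 higher, 1479 lower and 466 lower with arrays apart. Within the shared scan day 560 genes were higher with arrays apart, where only 4 other arrays had to be passed. With the replicate number as a block, 352 were higher (218 apart) and 232 lower (158 apart), but the numbers do not pair the samples. Leaving out 1 array gave 262 to 683 higher, 212 to 509 lower, 207 to 412 higher with arrays apart and 175 to 350 lower with arrays apart. The number higher fell past 1.5 times without serum/LIF replicate 1 (376) or 2 (393) or KOSR/LIF replicate 1 (308), 2 (262) or 3 (392), and the number lower without serum/LIF replicate 1 (266) or KOSR/LIF replicate 1 (212) or 3 (233). The causes were not tested. Of 110 named genes called, 39 passed under each of the 31 settings that tested them. Of 3766 gene values under other settings, 517 lost the call, 66 gained it and 0 reversed a call. Dim probes on KOSR/LIF replicate 3 limit what its low levels show.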
